A study of Rattus norvegicus with 27 samples.

Results

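Fn1, Sparc and Spp1 are 3 genes for secreted glycoproteins of the extracellular matrix, and they were followed over all 7 groups of substrate and day in a series on rat lung fibroblasts. The members were chosen by Ensembl gene ID, as ENSRNOG00000014288 (Fn1), ENSRNOG00000012840 (Sparc) and ENSRNOG00000043451 (Spp1), and all 3 were found among the 32753 gene IDs of the count table and passed the filter on low counts. The table carries IDs alone, so the names are those given with the selection. All groups share the cell source: primary fibroblasts from the lungs of outbred Sprague-Dawley rats, selected on magnetic beads by CD90, also called Thy-1, and kept in MucilAir medium. Both surfaces carried a coat of rat tail collagen I at 38 µg/ml. The groups were fibroblasts on polydimethylsiloxane (PDMS), a soft silicone of 3 to 5 kPa, at day 2, day 4, day 7 and day 14 (n = 4 libraries each), and fibroblasts on plastic at day 4 (n = 4), day 7 (n = 3) and day 14 (n = 4). The column headers of the count table carry Non, MonoCulture and WT for every library, with no further word on what Non stands for. No individual animal, sex or age is given for any group, and nothing ties a library to its own isolation or culture. Each p-value here therefore weighs a difference against library-to-library spread alone, which may be partly technical. Because the files do not pair IDs with names, the fibroblast label was not checked against marker genes, and receptors, other matricellular genes and markers of macrophages were not looked up.

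Fibronectin, the product of Fn1, is a large dimeric glycoprotein that cells stretch into fibrils through integrin receptors, and it serves as a scaffold for other matrix proteins. Sparc encodes osteonectin, a calcium- and collagen-binding protein that takes part in the assembly of collagen fibrils. Spp1 encodes osteopontin, a phosphorylated cytokine-like protein that binds integrins and CD44 and is made by macrophages and bone cells as well as by fibroblasts. Fibronectin and osteopontin are both abundant in fibrotic lung.

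Library totals lay between 17.3 and 25.3 M (mega) counts. Among 39 pairs of libraries of the same group, the counts of Plastic day 4 replicates 1 and 2 and of Plastic day 14 replicates 2 and 3 were the closest, with a chi-square per degree of freedom of 7.76 and 8.15, against 32.1 to 391 for the other pairs. Both pairs differed by more than sampling noise and were kept as separate libraries. Libraries of different groups also deviated together from their group means over all tested genes, among them Plastic day 14 replicate 4 with PDMS day 14 replicate 3 (r = 0.71), Plastic day 14 replicate 4 with Plastic day 7 replicate 3 (r = 0.65) and Plastic day 7 replicate 3 with Plastic day 4 replicate 3 (r = 0.76). These correlations run across genes, which are not independent.

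All 3 genes were among the abundant messages of these cultures. The lowest count of any of them in any library was 7110, for Spp1 in PDMS day 2 replicate 3. By count, Fn1 was among the top 10 genes in 26 of 27 libraries and ranked first in 6, Sparc was among the top 10 in 18 and Spp1 in 15. Their summed share of all counts was 0.80% ± 0.445 at PDMS day 2, 1.43% ± 0.147 at PDMS day 4, 1.87% ± 0.167 at PDMS day 7 and 1.88% ± 0.282 at PDMS day 14 (SD, n = 4 each). The plastic libraries held 1.63% ± 0.231 of counts in the 3 genes on day 4 (n = 4), 2.64% ± 0.574 on day 7 (n = 3) and 3.17% ± 0.521 on day 14 (n = 4).

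Per transcript length the order of the genes was another one. Levels between genes were compared in transcripts per M of all transcripts (TPM), from the length-scaled table the authors deposited, in which 1 TPM stood for 6.32 times as many counts for Fn1 as for Spp1. Fn1 had the highest count of the 3 genes in 23 of 27 libraries, but the highest TPM in 0. Spp1 had the highest TPM in 17 libraries and Sparc in 10. At PDMS day 7 Spp1 came first in 4 of 4 libraries, with 5587 ± 1110 TPM against 2703 ± 537 TPM for Sparc and 1130 ± 92.9 TPM for Fn1 (SD, n = 4). At PDMS day 14 it came first in 0 of 4, with 1518 ± 784 TPM against 3245 ± 811 TPM for Sparc and 1846 ± 290 TPM for Fn1. At Plastic day 14 Spp1 came first in 3 of 4 libraries, with 6859 ± 3807 TPM against 4897 ± 685 TPM for Sparc and 2763 ± 541 TPM for Fn1. Sparc came first in the other libraries of day 14, and whether the substrates differ in this order was not tested. The Sparc level was 0.972 to 4.05 times the Fn1 level per length, and it was above Fn1 in 26 of 27 libraries. The Spp1 level ran from 0.314 to 13.0 times the Fn1 level per length.

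**Figure D1:**
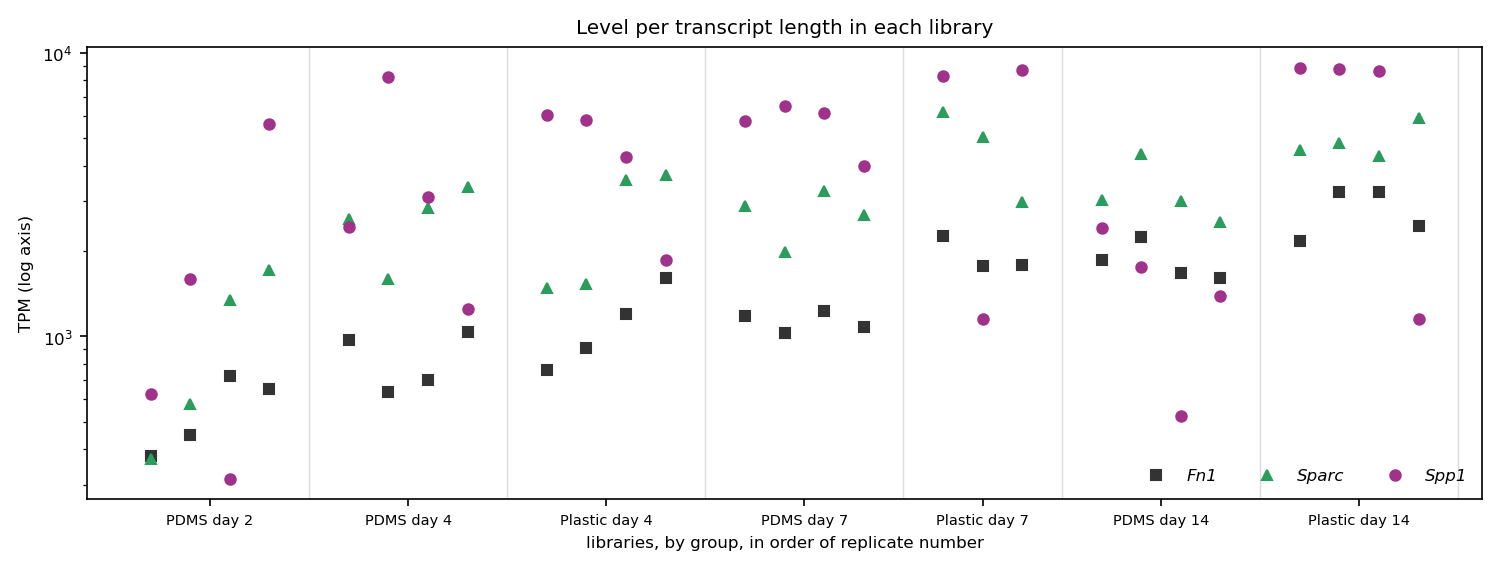
TPM of Fn1 (squares), Sparc (triangles) and Spp1 (circles) in each of 27 libraries on a log axis, grouped by substrate and day. Spp1 spans 316 to 8874 TPM and changes places with the other genes between libraries, whereas Sparc lies above Fn1 in 26 of 27.

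Fn1 rose with days in culture on both substrates. On PDMS its mean was 3664 ± 1267 counts per M of the TMM-scaled library size (CPM) at day 2, 5488 ± 1320 CPM at day 4, 7669 ± 678 CPM at day 7 and 12345 ± 1409 CPM at day 14 (SD, n = 4 each). The plastic means were 7375 ± 2608 CPM for day 4 (n = 4), 13488 ± 2520 CPM for day 7 (n = 3) and 19087 ± 3364 CPM for day 14 (n = 4). In these bulk cultures a change in the share of expressing cells and a change in messenger RNA per cell cannot be told apart.

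In replicates 1 to 4, Fn1 stood at 2486, 2667, 4935 and 4570 CPM at PDMS day 2 and at 6410, 4051, 4701 and 6790 CPM at PDMS day 4. It stood at 7736, 6939, 8558 and 7442 CPM at PDMS day 7 and at 11930, 14406, 11220 and 11825 CPM at PDMS day 14. The libraries of day 4 overlapped with those of day 2, while those of day 7 lay above all of day 4 and those of day 14 above all of day 7. On plastic the values were 4873, 5741, 8231 and 10653 CPM at day 4, then 16398, 12058 and 12009 CPM in replicates 1, 3 and 4 at day 7, and 15627, 22208, 21723 and 16790 CPM at day 14. Plastic day 7 lay above all of Plastic day 4, and the libraries of day 14 and day 7 overlapped. Fn1 was the gene with the most counts in 4 of 4 Plastic day 14 libraries and in 2 of 4 PDMS day 14 libraries.

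Between day 14 and day 2 on PDMS, Fn1 differed by a log2 fold change of 1.75 ± 0.26 (SE), a 3.37-fold rise (edgeR quasi-likelihood test, Benjamini-Hochberg adjusted p = 2.84e-05, n = 4 and 4). Of the 3 genes, 2 were called higher there, Fn1 and Sparc, where 24.3% of the 14258 tested genes were called higher. Both lay wholly above day 2 at day 14, as did 19.8% of tested genes. The median log2 fold change of the 3 genes was 1.68, against -0.05 over all tested genes. That median is the Sparc value, and Spp1 went the other way, at -0.43, without a call. On the log2 scale Fn1 rose by 1.17 ± 0.26 at PDMS day 14 against day 4 (edgeR adjusted p = 0.00417), and it was the only 1 of the 3 genes called, against 13.4% of tested genes called higher and 16.3% that lay wholly higher. On plastic it rose by 1.37 ± 0.26 over the same days (edgeR adjusted p = 0.000816), again as the only 1 of the 3, against 14.3% of tested genes. Over the single steps the log2 fold change was 0.58 ± 0.26 at PDMS day 4 against day 2 (edgeR adjusted p = 0.137), 0.48 ± 0.25 at PDMS day 7 against day 4 (adjusted p = 0.472) and 0.69 ± 0.26 at PDMS day 14 against day 7 (adjusted p = 0.0957). On plastic the steps were 0.87 ± 0.27 at day 7 against day 4 (edgeR adjusted p = 0.153) and 0.50 ± 0.28 at day 14 against day 7 (adjusted p = 0.425). No single step of Fn1 passed in the edgeR fit of all 27 libraries. An edgeR fit of the groups alone called PDMS day 14 against day 7 (0.69, adjusted p = 0.0327). DESeq2 called PDMS day 14 against day 7 (0.69, adjusted p = 0.0427) and Plastic day 7 against day 4 (0.89, adjusted p = 0.0404). At PDMS day 14 against day 7, the fit of the groups alone called 1998 genes and DESeq2 1819, against 788 in the edgeR fit of all libraries. The steps without overlap were PDMS day 14 against day 7, where 12.3% of tested genes lay wholly higher, PDMS day 7 against day 4, where 4.22% did, and Plastic day 7 against day 4, where 5.48% did. Over all tested genes, the edgeR fit of all libraries called 5.53% at PDMS day 14 against day 7, 0.147% at PDMS day 7 against day 4, 0.0842% at Plastic day 14 against day 7 and 0% at Plastic day 7 against day 4. At Plastic day 7 against day 4, 2665 genes had an unadjusted p under 0.05, and DESeq2 called 393.

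**Figure D2:**
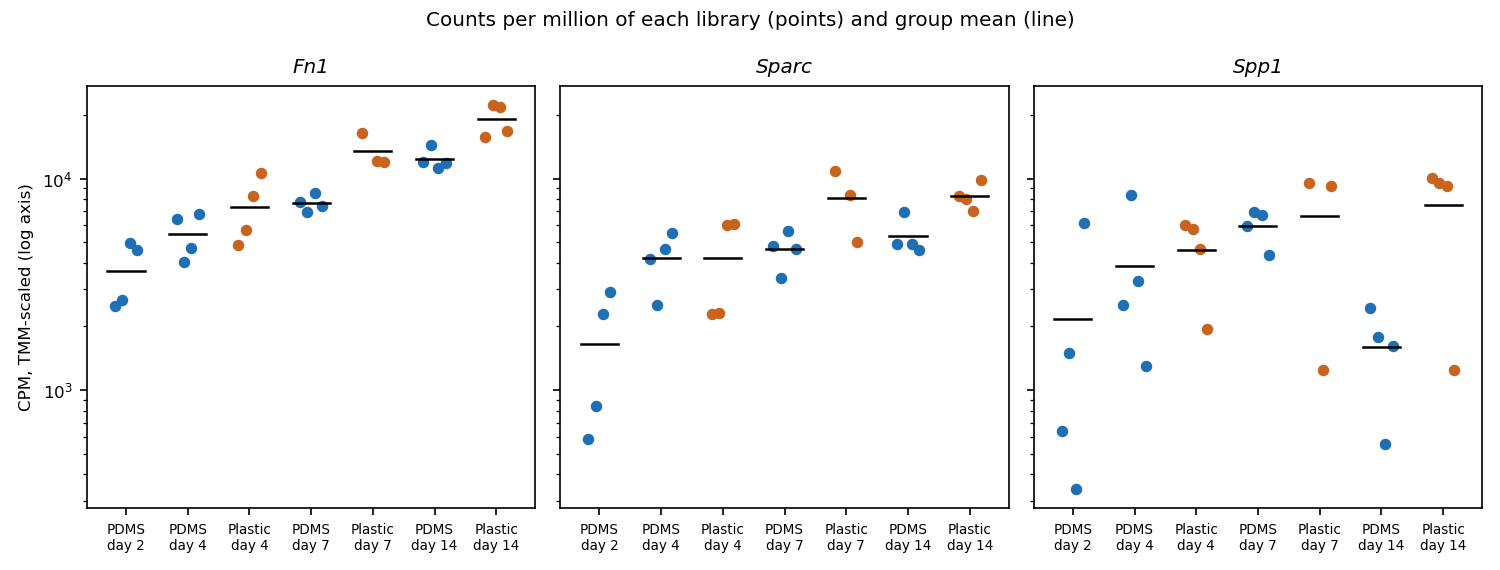
CPM of Fn1, Sparc and Spp1 in each library (points, in order of replicate number; blue for PDMS, orange for plastic) with the group mean (line), on a log axis. Fn1 is lowest in a PDMS day 2 library (2486 CPM) and highest in a Plastic day 14 library (22208 CPM), the Sparc means on PDMS lie between 4205 and 5322 CPM from day 4 on, and Spp1 spans 18.1-fold within PDMS day 2.

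The 250 bases before the gene start are shown for Sparc and Spp1, the members with an entry among the RefSeq promoters (2 of 3 symbols). Whether the courses of these genes differ was not tested. They are of build GRCr8 and run 5′ to 3′ on the gene's own strand, and capitals mark matches to any of 5 short motifs searched on both strands.
Sparc promoter, chr10:40038817-40039066, minus strand: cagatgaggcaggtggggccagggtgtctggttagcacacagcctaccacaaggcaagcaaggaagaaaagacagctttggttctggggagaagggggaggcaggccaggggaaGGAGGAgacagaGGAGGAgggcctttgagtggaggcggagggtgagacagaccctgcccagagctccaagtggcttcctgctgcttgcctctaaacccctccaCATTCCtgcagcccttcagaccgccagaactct
Spp1 promoter, chr14:5619805-5620054, minus strand: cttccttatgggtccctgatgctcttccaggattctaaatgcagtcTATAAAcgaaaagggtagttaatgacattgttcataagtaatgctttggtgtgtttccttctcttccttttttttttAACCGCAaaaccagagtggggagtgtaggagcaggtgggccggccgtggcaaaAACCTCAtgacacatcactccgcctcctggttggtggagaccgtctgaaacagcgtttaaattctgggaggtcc
The Sparc window holds 1 match to the TEAD motif CATTCC, found in 12.1% of 33469 RefSeq promoter windows of this length, and 2 to the purine-rich GGAGGA, found in 27.5%. The Spp1 window holds 1 match to the TATA box letters TATAAA, found in 12.9% of windows, and 2 to the RUNX motif AACCNCA, found in 12.9%. The TATAAA match begins at base -204 relative to the gene start, and whether it serves as a TATA box was not tested. Neither window holds the AP-1 motif TGANTCA, found in 6.34%. No 2 of the matches overlap, and they describe letters, not sites that were measured.

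Sparc rose on PDMS between day 2 and day 14, and most of the rise in its mean lay between day 2 and day 4. Its mean on PDMS was 1658 ± 1124 CPM at day 2, 4205 ± 1246 CPM at day 4, 4628 ± 941 CPM at day 7 and 5322 ± 1078 CPM at day 14 (SD, n = 4 each). Plastic day 4 averaged 4191 ± 2186 CPM (n = 4), Plastic day 7 averaged 8089 ± 2922 CPM (n = 3) and Plastic day 14 averaged 8308 ± 1164 CPM (n = 4).

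At PDMS day 2, Sparc stood at 586, 843, 2287 and 2915 CPM in replicates 1 to 4, a span of 4.98-fold, and at PDMS day 4 at 4152, 2536, 4630 and 5503 CPM. It stood at 4800, 3393, 5678 and 4641 CPM at PDMS day 7 and at 4882, 6923, 4906 and 4576 CPM at PDMS day 14. Replicates 1 and 2 were the low libraries at day 2, and only replicate 2 of day 4 lay inside the day 2 range. On plastic the values were 2278, 2319, 6041 and 6127 CPM at day 4, then 10853, 8382 and 5031 CPM in replicates 1, 3 and 4 at day 7, and 8312, 8011, 7053 and 9858 CPM at day 14. Plastic day 4 fell into a low pair, the closely alike replicates 1 and 2, and a high pair. The Plastic day 14 libraries lay above all of Plastic day 4, as in 13.2% of tested genes.

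Sparc at PDMS day 14 was 3.21-fold higher than at PDMS day 2 (log2 fold change 1.68 ± 0.42, SE; edgeR adjusted p = 0.00245, n = 4 and 4). The step from PDMS day 2 to day 4 came to 1.34 ± 0.42 (edgeR adjusted p = 0.0458). Sparc was the 1 gene of the 3 called there, where 5.17% of tested genes were called higher. That call ended without PDMS day 2 replicate 1 (edgeR adjusted p = 0.161), replicate 2 (0.122) or replicate 3 (0.0608), without PDMS day 4 replicate 1 (0.0807), replicate 3 (0.0882) or replicate 4 (0.131), and in a fit of these groups alone (0.190). It held when replicate 4 of day 2 or replicate 2 of day 4 was left out, in fits that called 3307 and 1500 genes. The other fits with 1 library left out called 56 to 757 genes. The fit of these groups alone called 0, against 1428 in the fit of all libraries. In the fits without the call, the Sparc value was 1.07 to 1.54. On PDMS the later steps were 0.14 ± 0.41 at day 7 against day 4 (edgeR adjusted p = 0.964) and 0.20 ± 0.41 at day 14 against day 7 (adjusted p = 0.782), and day 14 against day 4 was 0.34 ± 0.41 (adjusted p = 0.552). On plastic, day 14 against day 4 was 0.99 ± 0.42 (edgeR adjusted p = 0.0720), which passed with DESeq2 (0.99, adjusted p = 0.0480). It also passed without a library of the high pair of Plastic day 4, replicate 3 (1.26, edgeR adjusted p = 0.0336) or replicate 4 (1.23, adjusted p = 0.0463). Without a library of the low pair it fell, to 0.82 for replicate 1 (edgeR adjusted p = 0.181) and 0.79 for replicate 2 (adjusted p = 0.203). The fits without replicate 1, 2, 3 or 4 called 3140, 3075, 5319 and 4262 genes in turn. DESeq2 called 5230 genes, and the edgeR fit of all libraries 4641. The plastic steps were 0.95 ± 0.44 at day 7 against day 4 (edgeR adjusted p = 0.256) and 0.04 ± 0.45 at day 14 against day 7 (adjusted p = 0.981).

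Of the 3 genes, Spp1 had the widest spread within groups when the groups were pooled. In single groups this did not always hold. At Plastic day 4 the SD of log2 CPM was 0.811 for Sparc against 0.764 for Spp1, and at PDMS day 7 it was 0.310 against 0.309. The pooled SD of log2 CPM within groups was 1.23 for Spp1, against 0.62 for Sparc and 0.35 for Fn1, and the median over tested genes was 0.35. A larger SD than that of Spp1 was found in 5.23% of tested genes, and a larger one than that of Sparc in 27.8%. Among the 100 genes with a mean of at least 1000 CPM, Spp1 ranked 4 by SD, Sparc 25 and Fn1 56. The highest Spp1 library exceeded the lowest 18.1-fold at PDMS day 2, 6.43-fold at PDMS day 4, 1.59-fold at PDMS day 7 and 4.40-fold at PDMS day 14. On plastic the spans were 3.12-fold, 7.70-fold and 8.08-fold at day 4, day 7 and day 14.

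On PDMS the Spp1 mean was 2163 ± 2717 CPM at day 2, 3857 ± 3093 CPM at day 4, 5997 ± 1177 CPM at day 7 and 1600 ± 783 CPM at day 14 (SD, n = 4 each). Replicates 1 to 4 stood at 642, 1497, 340 and 6171 CPM at PDMS day 2 and at 2531, 8333, 3266 and 1296 CPM at PDMS day 4. They stood at 5968, 6931, 6743 and 4347 CPM at PDMS day 7 and at 2448, 1779, 556 and 1618 CPM at PDMS day 14. The high library was replicate 4 at day 2 and replicate 2 at day 4, where Spp1 held more counts than any other gene. The PDMS day 7 libraries were close to one another, and all of PDMS day 14 lay below all of PDMS day 7.

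The Spp1 mean of Plastic day 4 was 4601 ± 1875 CPM (n = 4), that of Plastic day 7 was 6679 ± 4713 CPM (n = 3) and that of Plastic day 14 was 7532 ± 4204 CPM (n = 4). Replicates 1 to 4 stood at 6053, 5764, 4647 and 1939 CPM at day 4 and at 10095, 9566, 9218 and 1249 CPM at day 14, and replicates 1, 3 and 4 stood at 9530, 1238 and 9267 CPM at day 7. The lowest library was replicate 4 at day 4, replicate 3 at day 7 and replicate 4 at day 14. By Dixon's criterion for outliers, only that of day 14 lay far from the others. The day 4 library was not marked, and day 7 (n = 3) was not tested. The low libraries of Plastic day 7 and Plastic day 14, and PDMS day 14 replicate 3 with the lowest Spp1 of its group, are among the libraries that deviated together over all genes (r = 0.65 and 0.71). Plastic day 4 replicate 3, which deviated with Plastic day 7 replicate 3 (r = 0.76) and with Plastic day 14 replicate 4 (r = 0.53), was not low in Spp1: its log2 CPM deviated by 0.14 from its group mean, against -1.95 and -2.21 in those libraries. The part of these shared deviations in the Spp1 levels was not tested.

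Spp1 was called in 0 of 15 contrasts by edgeR, by DESeq2 and by limma-voom, and 2 of them had an unadjusted edgeR p under 0.05. The largest change with time was PDMS day 14 against day 7, where the fitted log2 value was -1.91 ± 0.80 (SE, edgeR; adjusted p = 0.132). It passed in a fit of these groups alone (-1.90, edgeR adjusted p = 0.0249), which called 1998 genes, against 788 in the fit of all libraries. Of tested genes, 10.7% lay wholly lower at PDMS day 14. PDMS day 14 against day 4 was -1.27 ± 0.78 (edgeR adjusted p = 0.220), and -0.52 without PDMS day 4 replicate 2. PDMS day 4 against day 2 was 0.83 ± 0.78 (edgeR adjusted p = 0.513) and PDMS day 14 against day 2 was -0.43 ± 0.77 (adjusted p = 0.657). Without PDMS day 2 replicate 4 these became 2.25 (edgeR adjusted p = 0.0407) and 1.01 (adjusted p = 0.266), the second with the opposite sign. That fit called 3307 genes at PDMS day 4 against day 2, against 1428 in the fit of all libraries. Without PDMS day 4 replicate 2, PDMS day 4 against day 2 was 0.13 (adjusted p = 0.937), so single libraries moved it in either direction. PDMS day 7 against day 4 was 0.64 ± 0.77 (edgeR adjusted p = 0.866), with 1.41 in the fit without PDMS day 4 replicate 2 and 0.35 in the fit without PDMS day 4 replicate 4. On plastic, day 7 against day 4 was 0.54 ± 0.83 (edgeR adjusted p = 0.741), day 14 against day 7 was 0.17 ± 0.83 (adjusted p = 0.954) and day 14 against day 4 was 0.71 ± 0.77 (adjusted p = 0.501).

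The order of the group means was alike for Fn1 and Sparc at its ends. Fn1 was highest at Plastic day 14, then Plastic day 7, PDMS day 14, PDMS day 7, Plastic day 4, PDMS day 4 and PDMS day 2. Only PDMS day 14 and PDMS day 7, neighbours in that order, did not overlap. Sparc ran from Plastic day 14 through Plastic day 7, PDMS day 14, PDMS day 7, PDMS day 4 and Plastic day 4 to PDMS day 2, and every neighbouring pair overlapped. Spp1 was also highest at Plastic day 14, followed by Plastic day 7, PDMS day 7, Plastic day 4, PDMS day 4 and PDMS day 2, but lowest at PDMS day 14, again with overlap between all neighbours.

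The comparison of PDMS with plastic asks whether the substrate sets the level at a given day. Fn1 was lower on PDMS when days 4, 7 and 14 were averaged, with a log2 value of -0.62 ± 0.15 (SE; edgeR adjusted p = 0.0166, 12 PDMS and 11 plastic libraries). It was the 1 gene of the 3 that passed, where 5.41% of tested genes were called lower on PDMS. Without Plastic day 7 replicate 1, the highest library of its group, the Fn1 value was -0.57 (edgeR adjusted p = 0.0518). That fit called 434 genes, against 1004 in the fit of all libraries. Over the 23 libraries left out in turn the Fn1 value ran from -0.66 to -0.55. Sparc stood at -0.48 ± 0.24 (edgeR adjusted p = 0.259) and Spp1 at -0.88 ± 0.46 (adjusted p = 0.271) in the same average.

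Within single days 0 of the 3 genes passed in the edgeR fit, which called 0% of all tested genes at day 4, 0.849% at day 7 and 0% at day 14. Without adjustment, 1246 genes at day 4 and 1266 at day 14 had an edgeR p under 0.05, and DESeq2 called 15 and 114 there. The Fn1 value was -0.43 ± 0.25 at day 4 (log2, SE; edgeR adjusted p = 0.717), -0.81 ± 0.27 at day 7 (adjusted p = 0.119) and -0.63 ± 0.26 at day 14 (adjusted p = 0.457). All Fn1 libraries on PDMS lay below all on plastic at day 7 and at day 14, where 10.0% and 2.91% of tested genes did so, while those of day 4 overlapped. With DESeq2 the day 7 difference of Fn1 passed (-0.84, adjusted p = 0.0394), where DESeq2 called 762 genes and edgeR 121.

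For Sparc the log2 fold change on PDMS was 0.0049 ± 0.41 at day 4 (SE; edgeR adjusted p = 0.999), -0.81 ± 0.44 at day 7 (adjusted p = 0.351) and -0.64 ± 0.41 at day 14 (adjusted p = 0.698). The Sparc libraries overlapped at day 4 and day 7, and at day 14 PDMS lay below plastic, at 4576 to 6923 CPM against 7053 to 9858 CPM, as 2.91% of tested genes did. For Spp1 it was -0.25 ± 0.77 at day 4 (edgeR adjusted p = 0.999), -0.16 ± 0.83 at day 7 (adjusted p = 0.944) and -2.23 ± 0.81 at day 14 (adjusted p = 0.386). At day 14 Spp1 stood at 556 to 2448 CPM on PDMS and at 1249 to 10095 CPM on plastic. The overlap came from Plastic day 14 replicate 4, and without that library the log2 fold change was -2.59 (edgeR adjusted p = 0.115). That was the lowest value with 1 library left out. The highest was -1.95, without PDMS day 14 replicate 3 (edgeR adjusted p = 0.758).

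**Figure D3:**
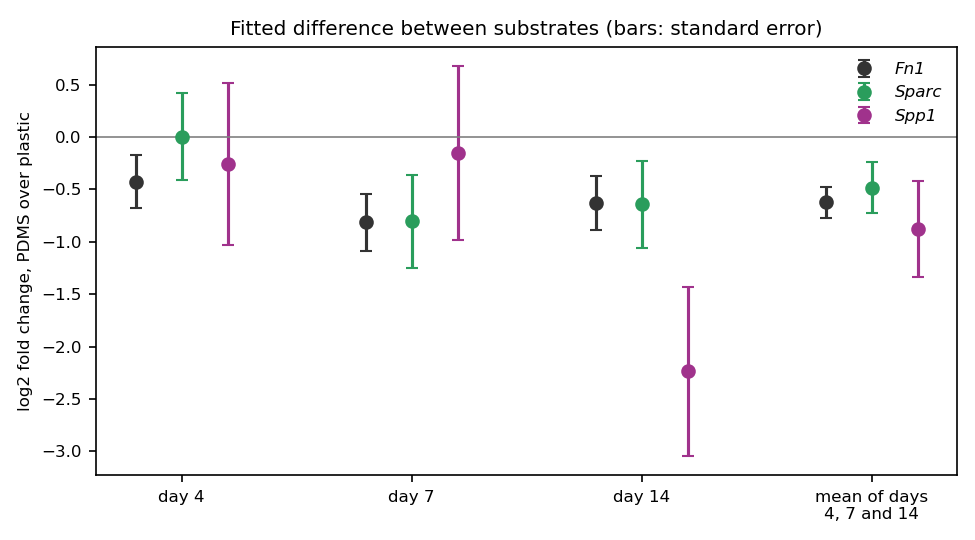
Fitted log2 fold change of PDMS over plastic for Fn1, Sparc and Spp1 at each day and averaged over days, with bars of 1 standard error. Fn1 lies below 0 throughout, at -0.43, -0.81, -0.63 and -0.62, and Spp1 has the widest bars throughout and its lowest value, -2.23, at day 14.

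Whether the course over days differed between the substrates was tested by interaction terms, for which edgeR called 0% of tested genes and 0 of the 3 members. At an unadjusted p under 0.05 it gave 971 genes for day 14 against day 4, 980 for day 14 against day 7 and 419 for day 7 against day 4, and DESeq2 called 4, 1 and 0. For day 14 against day 4, PDMS minus plastic, the term was -0.20 ± 0.36 for Fn1 (SE; edgeR adjusted p = 0.956), -0.65 ± 0.58 for Sparc (adjusted p = 0.899) and -1.98 ± 1.10 for Spp1 (adjusted p = 0.779). For day 14 against day 7 it was 0.19 ± 0.37 for Fn1 (edgeR adjusted p = 0.926), 0.16 ± 0.61 for Sparc (adjusted p = 0.967) and -2.08 ± 1.16 for Spp1 (adjusted p = 0.716). The Spp1 term of day 14 against day 4 was -1.26 in the fit without PDMS day 4 replicate 2. None of these terms reached 2 standard errors in the fit of all libraries. For day 7 against day 4 it was -0.39 ± 0.37 for Fn1 (edgeR adjusted p = 0.994), -0.81 ± 0.61 for Sparc (adjusted p = 0.994) and 0.10 ± 1.13 for Spp1 (adjusted p = 0.998). For Spp1 the standard error was above 1 on the log2 scale in each of these terms.

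Within groups, Fn1 and Sparc went up and down together from library to library, and no such relation was detected for Spp1. Over the deviations of 27 libraries from their group means, Fn1 and Sparc had a Pearson r of 0.83 (two-sided permutation p = 0.00086, adjusted 0.00258 over 3 pairs of genes; 100000 permutations within groups) and a Spearman rho of 0.79 (permutation p = 0.00199, adjusted 0.00597). The r was 0.91 over the 16 PDMS libraries and 0.74 over the 11 plastic libraries, 0.80 without Plastic day 4 replicate 4 and PDMS day 2 replicate 3, the 2 libraries farthest from the median of Fn1, and 0.85 with 1 library of each closely alike pair left out. For Fn1 and Spp1 the r was -0.08 (permutation p = 0.763, adjusted 0.763) and the rho -0.11 (permutation p = 0.635, adjusted 0.635), with an r of 0.15 without the same 2 libraries. The sign of that weak relation thus rests on them. For Sparc and Spp1 the r was -0.12 (permutation p = 0.708, adjusted 0.763) and the rho -0.27 (permutation p = 0.240, adjusted 0.360), and the r moved to -0.50 without PDMS day 2 replicates 1 and 4. The permutations take libraries as independent, although some deviated together over all genes. How many other genes go with Fn1 or Sparc as closely within groups was not computed. Over groups and libraries together, 496 of 10509 other genes had an r over 0.8 with Fn1 and 627 with Sparc. The r of Fn1 and Sparc is thus not shown to be particular to them.

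**Figure D4:**
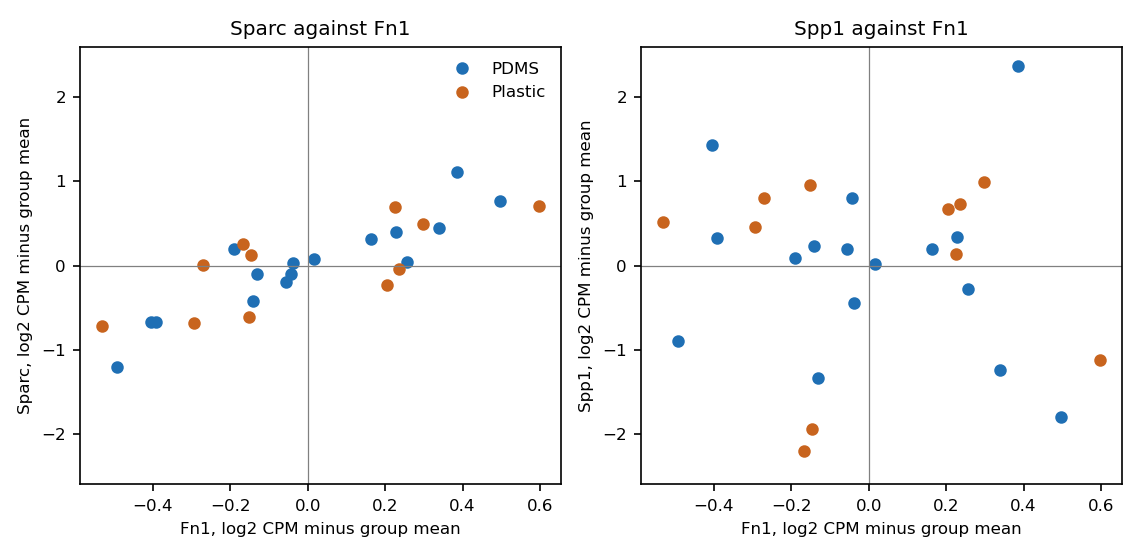
Deviation of log2 CPM from the group mean in 27 libraries, Sparc (left) and Spp1 (right) against Fn1, with PDMS in blue and plastic in orange. The Sparc points rise along with Fn1 (r = 0.83), and the Spp1 points show no such slope (r = -0.08).

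Genes of like pattern were sought by the Pearson r of log2 CPM over the 27 libraries, among 10509 other genes with a mean of at least 5 CPM. Sparc had 156 genes with an r over 0.9, Fn1 47 and Spp1 0. The closest to Fn1 was ENSRNOG00000013889 (r = 0.94), with means of 59.9 CPM at PDMS day 2, 202 CPM at PDMS day 14 and 248 CPM at Plastic day 14. The closest to Sparc was ENSRNOG00000025001 (r = 0.97), with means of 151 CPM at PDMS day 2, 1082 CPM at PDMS day 14 and 1390 CPM at Plastic day 14. The files give no name for either ID. For Spp1 the highest r was 0.85, and 14 genes passed an r of 0.8. These correlations describe shared patterns over groups and libraries and carry no test.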

How the data were processed

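Messenger RNA of 27 libraries was sequenced from 200 ng of total RNA with a TruSeq kit on a HiSeq2000. The authors deposited raw counts per Ensembl gene ID, which were tested here. Per the series design text, FastQC 0.11.2, bamUtil 1.0.11 and dupRadar 1.4 served quality control and Cufflinks the quantification (2.2.1 per the submitters' processing notes, which also name STAR and DESeq2). How the counts were made (program, strand, genome build, annotation) is not given in the sources used here. Overlapping genes may share reads. A deposited table of depth-scaled values sums to 1 M (mega) per library and its ratio to the counts depends on the gene, so it was read as TPM. A table of variance-stabilized values was not used. The count table has 28 columns; the 1 that matches no sample was left out. None of the gene IDs matched the RefSeq table (0 of 32753), so the symbol lists planned for receptors, related genes and cell types were not run. The rule for named genes took the 3 members and the genes of highest r with each, at most 2 rising and 2 falling without a symbol.

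Counts were fitted in R 4.3.3 with edgeR 4.0.16 (filterByExpr, TMM, quasi-likelihood F test, 1 mean per group over all libraries, 20 residual degrees of freedom). The filter (count of about 10, total of 15) left 14258 genes with at least 99.9% of each library's counts. Genes were called at an adjusted p under 0.05, with a prior count of 2 in log2 CPM. Standard errors were taken as the log2 fold change divided by the root of F. The fit was tested on simulated data. Alternatives were RLE and library-size scaling, no filter, DESeq2 1.42.0, limma-voom 3.58.1, fits of the contrast's groups alone, a replicate block and leaving out each library; summing the closely alike libraries was added after seeing the data. The members, lists and tests were chosen with earlier results of these data known. Same-numbered libraries of PDMS day 4 and day 2 deviated together (r of 0.14 to 0.57 in 4 pairs), which meets the criterion set for pairs. Only 1 of 4 libraries of PDMS day 4 correlated best with its own number, however. The values reported there are of the fit without pairs, and a replicate block changed no member's call (Sparc 1.43, edgeR adjusted p = 0.0308). The labels do not say what a number marks.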

Additional observations from a re-analysis of the deposited data

Results flagged for a closer look

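Of 18 gene and group combinations with 4 libraries, 2 held a library far from the others by Dixon's criterion, where chance gives about 0.9. Sparc in PDMS day 14 replicate 2 stood at 6923 CPM, above 4576 to 4906 CPM in the other libraries of its group. Spp1 in Plastic day 14 replicate 4 stood at 1249 CPM, below 9218 to 10095 CPM in the others.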

How the results depend on the processing

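Of 342 values of the 45 gene and contrast results under another setting, 326 kept direction and call, as did 434 of 462 values with 1 library left out. The cause of the others was not tested. RLE scaling changed 0 of 45. Library size alone turned Sparc at Plastic day 14 against day 7 to -0.0012, and gave a median over all genes of -0.20 at PDMS day 14 against day 2 (-0.05 with TMM) and of 0.13 for PDMS against plastic at day 7 (0.01 with TMM). Without a filter Sparc was -9.9e-05 for PDMS against plastic at day 4. It also lost its call at PDMS day 4 against day 2 (1.33, edgeR adjusted p = 0.0617), as in a fit of these groups alone (1.33). Those fits called 1030 and 0 genes there, against 1428 in the filtered fit of all libraries. Fits of the groups alone called Fn1 (0.69) and Spp1 (-1.90) at PDMS day 14 against day 7, where 1998 genes were called. DESeq2 called Fn1 for PDMS against plastic at day 7 (-0.84), at PDMS day 14 against day 7 (0.69) and at Plastic day 7 against day 4 (0.89), and Sparc at Plastic day 14 against day 4 (0.99). Over all genes DESeq2 called 762, 1819, 393 and 5230 in those contrasts, in that order, against 121, 788, 0 and 4641 by edgeR. limma-voom turned Spp1 to 0.28 for PDMS against plastic at day 7 and to 0.22 at PDMS day 14 against day 2. With the replicate number as a block, Sparc passed at Plastic day 14 against day 4 (1.10, edgeR adjusted p = 0.0397), with 4879 genes called in place of 4641. In that contrast 3 of 4 same-numbered pairs correlated over 0.1 and 2 of 4 libraries correlated best with their own number. The block changed no other call. Summing the closely alike libraries, chosen after seeing the data, turned Sparc for PDMS against plastic at day 4 to -0.20, the Spp1 interaction of day 7 against 4 to -0.043 and the Fn1 interaction of day 14 against 4 to 0.0020.

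With each library left out in turn, the log2 fold change ran from 1.07 to 1.77 for Sparc and from 0.13 to 2.25 for Spp1 at PDMS day 4 against day 2, and from -0.75 to 1.01 for Spp1 at PDMS day 14 against day 2. For PDMS against plastic it ran from -0.20 to 0.25 for Sparc and -0.97 to 0.034 for Spp1 at day 4, from -0.65 to 0.19 for Spp1 at day 7, and from -0.66 to -0.55 for Fn1 in the average over days. On plastic it ran from 0.79 to 1.26 for Sparc at day 14 against day 4, and from -0.21 to 0.31 for Sparc and -0.32 to 0.53 for Spp1 at day 14 against day 7. The Spp1 value at PDMS day 7 against day 4 ran from 0.35 to 1.41. The interactions ran from -2.33 to -1.26 for Spp1 at day 14 against 4, -0.39 to 0.85 for Spp1 at day 7 against 4 and from -0.11 to 0.41 for Sparc at day 14 against 7. These genes held at least 7110 counts in every library, and whether depth moved the values was not tested.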
